A study of Mus musculus with 4 samples.

Results

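Glutamate carries the signal along the vertical pathway of the retina, from photoreceptors to bipolar cells and on to ganglion and amacrine cells. The genes described here encode the receptors that detect it, the proteins that deliver and anchor those receptors, and the transporters that load glutamate into vesicles or clear it from the synaptic cleft. The set of 38 genes was defined by name, and all 38 were found among the 23336 genes of the deposited table. It holds 4 AMPA, 7 NMDA and 5 kainate receptor subunits, 6 metabotropic receptors and 6 TARPs, the transmembrane proteins that accompany AMPA receptors. The other members are 2 vesicular and 4 plasma membrane transporters and 4 postsynaptic scaffolds. The metabotropic receptor of ON bipolar cells and the delta receptors are not in the set.

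Gene expression had been measured by RNA-seq of whole mouse retinas at postnatal day 8. The first group was Opn4-DTA/DTA, homozygous for a diphtheria toxin A chain placed at the melanopsin locus, so that the toxin is made in the cells that use the Opn4 promoter. The second was WT littermates. Both were on the C57/Bl6 background, with 2 libraries each, and the tissue field of the labels describes the material as dissociated. By this design, effects of lacking melanopsin cannot be told apart from those of lacking its cells. In bulk tissue, fewer cells of a type and less RNA per cell cannot be told apart either. Whether the replicate libraries stem from separate animals is not in the labels, so the p-values cover the spread among these 4 libraries and nothing beyond it.

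The deposited values were group means of normalized counts, that is, gene counts divided by a size factor for depth. The value of each library was recovered from them, and within a group, a and b name the libraries with the larger and the smaller size factor. Total counts per library were 60833968 and 32032295 in Opn4-DTA/DTA and 28726275 and 22202382 in WT. Opn4 itself stood at 0.546 and 0 normalized counts in the Opn4-DTA/DTA libraries and at 428 and 246 in the WT libraries, which matches the labels. Markers of rods, cones, bipolar, horizontal, amacrine, ganglion and Muller cells were all present in each group, with none at 0 in all libraries. The libraries of WT were less alike than those of Opn4-DTA/DTA. Over all 15003 genes whose mean reached 10 normalized counts, the median absolute log2 difference between library a and library b was 0.09 in Opn4-DTA/DTA and 0.20 in WT. Over the 38 glutamate genes, all of which passed that minimum, it was 0.08 in Opn4-DTA/DTA and 0.22 in WT.

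Promoters are shown for Slc17a7, the member with the lowest p in the comparison described below, and for Gria4 and Gria2, the AMPA subunit genes with the highest normalized counts. RefSeq promoter windows on GRCm38, the build called mm10 in the submitters' processing notes, were found for 27 of the 38 genes, and each sequence below is the 250 bases before the transcription start. Capitals mark copies of the GC box, GGGCGG on either strand, which is bound by Sp family factors. The windows are chr7:45163671-45163920 on the plus strand for Slc17a7, chr3:80802836-80803085 on the minus strand for Gria2 and chr9:4796235-4796484 on the minus strand for Gria4. The RefSeq start of Gria2 lies 44 bases from the start of the gene, in its direction of transcription, in the deposited table. Those of Slc17a7 and Gria4 coincide with the starts given for them there.
Slc17a7: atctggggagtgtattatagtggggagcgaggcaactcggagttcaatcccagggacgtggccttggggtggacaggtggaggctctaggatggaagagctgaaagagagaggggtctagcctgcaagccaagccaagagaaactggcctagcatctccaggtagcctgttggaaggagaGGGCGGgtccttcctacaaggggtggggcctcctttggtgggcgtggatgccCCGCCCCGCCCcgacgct
Gria2: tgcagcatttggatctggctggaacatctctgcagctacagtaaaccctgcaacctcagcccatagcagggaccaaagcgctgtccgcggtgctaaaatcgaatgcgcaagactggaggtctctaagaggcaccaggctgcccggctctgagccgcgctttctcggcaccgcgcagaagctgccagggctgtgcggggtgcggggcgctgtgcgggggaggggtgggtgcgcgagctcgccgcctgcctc
Gria4: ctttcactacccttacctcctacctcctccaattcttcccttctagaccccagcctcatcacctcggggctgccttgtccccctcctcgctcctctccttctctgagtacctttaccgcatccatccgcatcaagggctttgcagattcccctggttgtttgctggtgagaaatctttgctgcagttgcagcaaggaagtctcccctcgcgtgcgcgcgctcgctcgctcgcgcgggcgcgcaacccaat
The Slc17a7 window held 3 GC boxes close to the start, the last 2 of them overlapping by a base, and neither AMPA window held one. GC boxes were present in 16 of the 35 windows of the member genes (45.7%) and in 32.7% of all 32851 RefSeq windows of this length. The core motif of the photoreceptor factor CRX, TAATCC on either strand, was present in 2 of the 35 windows, those of Dlg4 and Cacng8 (5.71%), and in 6.25% of all windows. It was not in the Slc17a7 window. These are matches of letters only.

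The most abundant transcripts of the set were those of the vesicular transporter Slc17a7, the scaffold Dlg4 and the glial transporter Slc1a3. Levels are compared between genes as normalized counts per kilobase of merged exons (GENCODE), averaged over the 4 libraries. Slc17a7 led with 6359 per kb, followed by Slc1a3 with 2671 and Dlg4 with 1576. Grik5 with 1277 and Cacng7 with 1087 came next. The row named Slc1a7 was left out of this order, for a reason given with it. With the exon length of Slc1a7 it would stand at 1842 per kb, between Slc1a3 and Dlg4. At the other end stood the NMDA receptor subunits Grin2c with 14.4 per kb, Grin2b with 13.9, Grin3b with 7.83 and Grin2a with 2.91. Exon length matters here, since with the longest coding transcript Dlg4 ranked 2 and Homer1 moved to rank 19, from 25 with merged exons. Without this scaling, mean normalized counts in the set ranged from 25.7 for Grin3b to 19014 for Slc17a7.

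**Figure D1:**
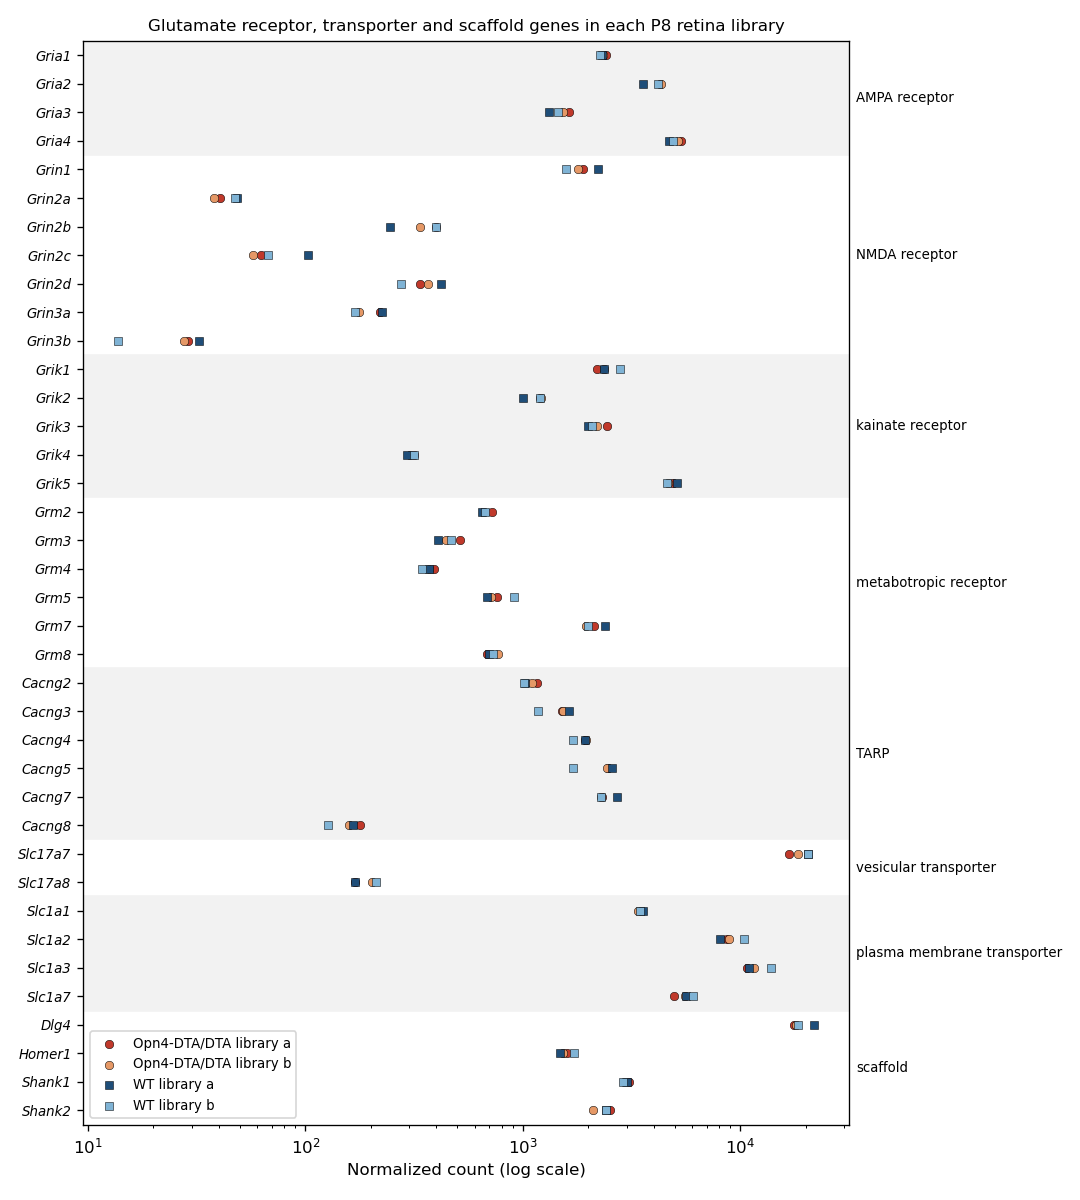
Normalized count (log scale) of each gene in the 2 Opn4-DTA/DTA libraries (circles) and the 2 WT libraries (squares), grouped by protein family. The genes span 25.7 to 19014 normalized counts, and for 25 of the 38 the libraries of the groups overlap.

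No member of the set passed the test between Opn4-DTA/DTA and WT. limma, fitted to log2(normalized count + 1) over all 15003 genes with Benjamini-Hochberg adjustment, called 0 of the 38 genes, beside 0.02% of all genes. At an unadjusted p under 0.05 it again counted 0, beside 1.66% of all genes, and the lowest unadjusted p in the set was 0.0574, for Slc17a7. With precision weights (voom) 0 of 38 were called and 1, Slc17a7, had an unadjusted p under 0.05. Without a variance trend 0 were called and 1, Grin2a, had one. The authors' deposited table calls 0.113% of its genes at an adjusted p under 0.05 and gives an adjusted p of 0.9997 for every member of the set. Of the 38 log2 fold changes 17 were below 0, against 50% of all genes, and their median was 0.02, against -9.64e-05 over all genes.

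The interval of each gene shows the range of fold changes that the spread among these libraries alone leaves room for. For 32 of the 38 the 95% interval of the fold change lay within 1.5-fold in either direction, as it did for 74.4% of all genes tested. The exceptions were Grin2a, Grin2b, Grin2c, Grin3b, Cacng5 and Cacng8. For Grin2c and Grin3b it also reached beyond 2-fold. The gap between the WT libraries was larger than the difference between the genotypes for 28 of the 38 genes, against 76.9% of all genes.

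**Figure D2:**
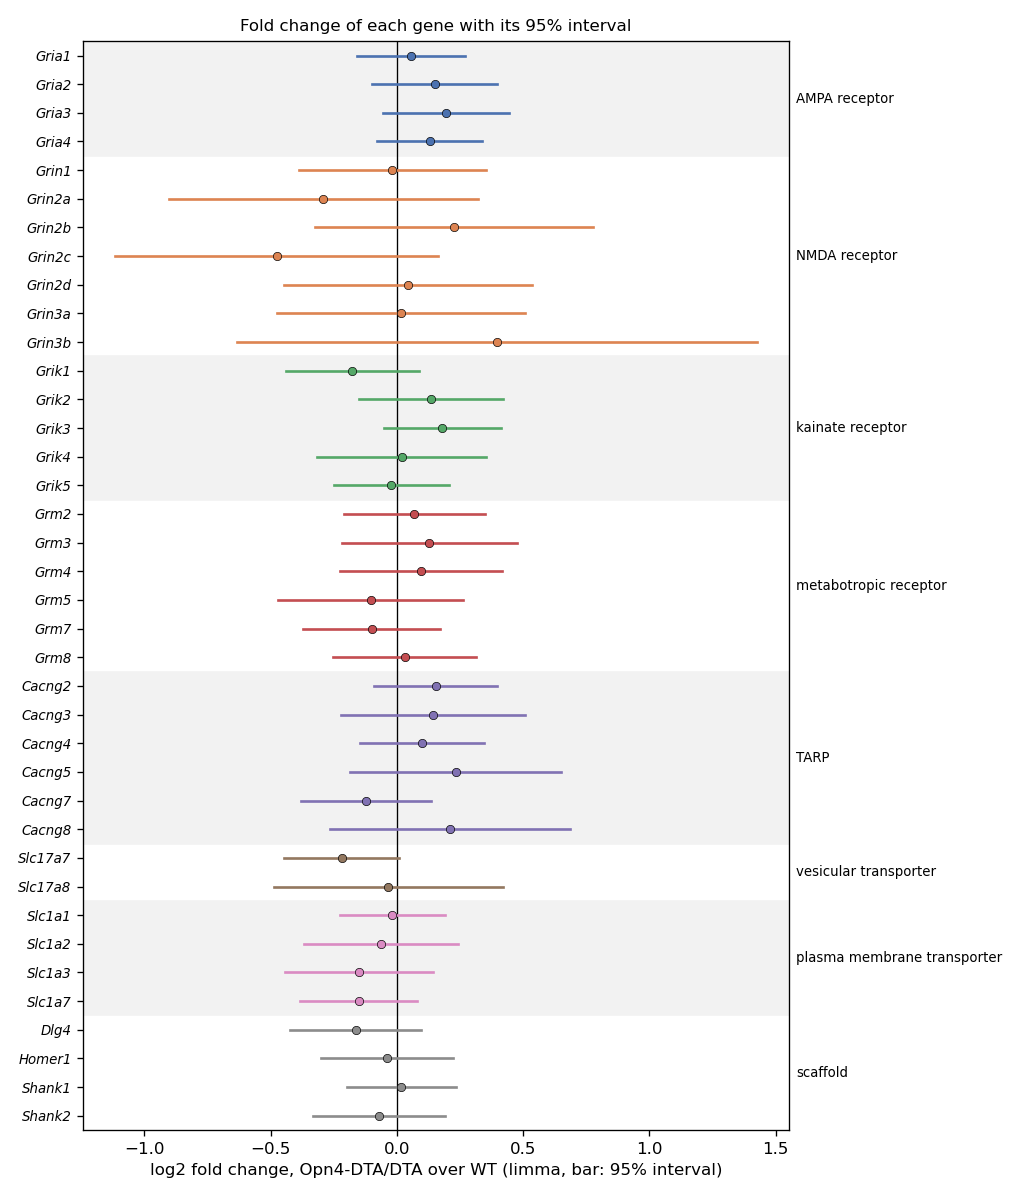
log2 fold change of each gene, Opn4-DTA/DTA over WT, from limma with its 95% interval (bars). Every interval includes 0, and the widest are those of the low NMDA subunit genes, Grin3b above all.

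Both Opn4-DTA/DTA libraries lay above both WT libraries for 7 members, Gria1, Gria2, Gria3, Gria4, Grik3, Grm4 and Cacng2, where 11.2% of all genes did so. Both lay below for 6 members, Grin2a, Grin2c, Grik1, Slc17a7, Slc1a7 and Dlg4, where 12.3% of all genes did. In either direction that makes 13 of 38, beside 23.5% of all genes. With scaling by library totals the counts became 10 above and 3 below, beside 16.0% and 7.87% of all genes. With counts thinned to the depth of the shallowest library they were 6 and 6, beside 11.5% and 12.4% of all genes.

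AMPA receptors carry most fast excitatory transmission, and they were the one family of the set in which every gene had its groups apart. All 4 had higher values in both Opn4-DTA/DTA libraries than in either WT library, and none passed the test. Gria4, the most abundant of them, had 5320 and 5178 normalized counts in Opn4-DTA/DTA and 4680 and 4916 in WT (log2 fold change 0.13, SE 0.09, limma adjusted p = 0.9997). Gria2, the subunit whose RNA editing makes the channel nearly impermeable to calcium, had 4270 and 4322 in Opn4-DTA/DTA and 3571 and 4195 in WT (log2 fold change 0.15, SE 0.11). Library b of WT thus lay close to both Opn4-DTA/DTA libraries. Gria3 had 1637 and 1532 in Opn4-DTA/DTA and 1316 and 1452 in WT (log2 fold change 0.20, SE 0.11, unadjusted p = 0.106). Gria1 had 2417 and 2338 in Opn4-DTA/DTA and 2305 and 2267 in WT (log2 fold change 0.06, SE 0.09). With counts thinned to the shallowest library Gria1 overlapped between the groups and the other 3 stayed apart. Because the groups were apart, leaving out 1 library could not turn the sign of any of the 4. Without WT library a the log2 fold change of Gria2 was 0.03.

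AMPA receptors are found on several retinal cell types, and the markers of these differed in direction. Of 7 amacrine markers 5 were above 0, with summed values of 41359 to 44762 in Opn4-DTA/DTA and 40005 to 40812 in WT. Of 9 ganglion cell markers 8 were above 0, but their sums of 48568 to 48821 in Opn4-DTA/DTA lay inside the WT range of 36269 to 59092. Of 5 horizontal cell markers 3 were above 0, and all 9 bipolar cell markers were below 0. Their part in the AMPA values was not tested.

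The make-up of AMPA receptor transcripts was nearly constant over the libraries. Per kb, Gria4 made up 42.8% ± 0.0296 of the 4 subunits in Opn4-DTA/DTA and 42.7% ± 0.475 in WT (SD, n = 2 each). Gria2 made up 21.1% ± 0.566 in Opn4-DTA/DTA and 20.8% ± 1.41 in WT. Gria1 stood at 21.1% ± 0.108 and Gria3 at 14.98% ± 0.428 in Opn4-DTA/DTA, beside 22.2% ± 1.28 and 14.3% ± 0.342 in WT. With 2 libraries against 2, the exact permutation test cannot go below p = 0.33, so this test could call no share different.

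**Figure D3:**
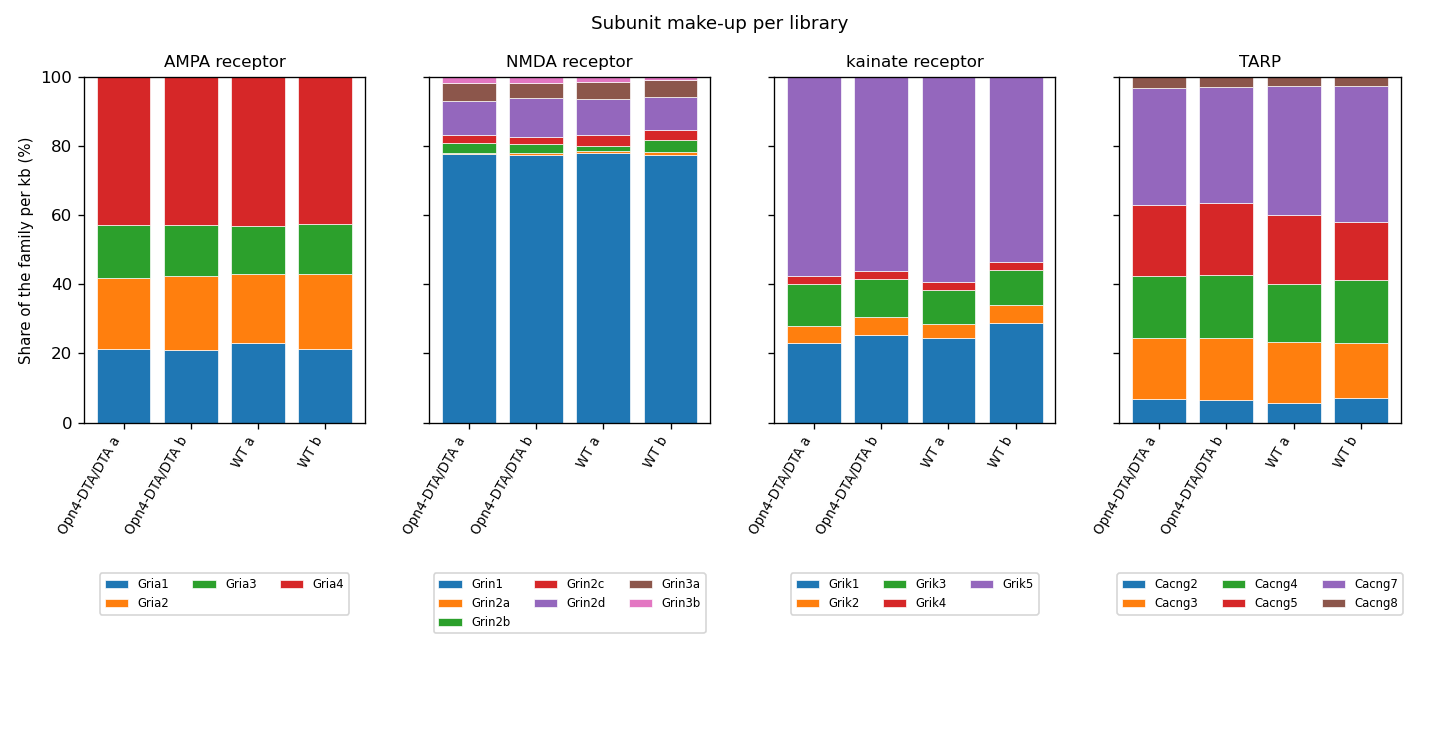
Share of each subunit in its family (percent of normalized counts per kb) in the 2 Opn4-DTA/DTA libraries and the 2 WT libraries. Gria4, Grin1, Grik5 and Cacng7 hold the largest share of their family in each library.

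TARPs accompany AMPA receptors, and some of them bring the receptors to the synapse and slow their closing. Of the 6 genes 5 had log2 fold changes above 0, with a median of 0.15, and 1 was apart between the groups. That was Cacng2, which encodes stargazin, with 1167 and 1102 normalized counts in Opn4-DTA/DTA and 1023 and 1015 in WT (log2 fold change 0.15, SE 0.10). Cacng5 had 2462 and 2434 in Opn4-DTA/DTA and 2559 and 1696 in WT. Its WT libraries lay on either side of the Opn4-DTA/DTA libraries. Without WT library a, Cacng5 passed in limma (log2 fold change 0.53, adjusted p = 0.00539), and so did Cacng3 (log2 fold change 0.38, adjusted p = 0.0433), beside 2.04% of all genes called and 1.23% called higher. That fit has a single WT library, which is assumed to vary as the Opn4-DTA/DTA libraries do, and it called 306 genes in all, against 3 with all libraries. No member was called without Opn4-DTA/DTA library a, without Opn4-DTA/DTA library b or without WT library b, where 0.0667%, 0.127% and 1.58% of all genes were. Without WT library b the log2 fold change of Cacng5 was -0.06 and that of Cacng3 -0.09. Cacng3 averaged 1521 ± 4.13 in Opn4-DTA/DTA and 1395 ± 321 in WT. Cacng7, the most abundant TARP gene per kb, had 2322 and 2277 in Opn4-DTA/DTA and 2719 and 2299 in WT, and was the single TARP below 0 (log2 fold change -0.12, SE 0.11). It made up 33.8% ± 0.161 of TARP transcripts per kb in Opn4-DTA/DTA and 38.3% ± 1.56 in WT (exact permutation p = 0.33). Cacng4 averaged 1945 ± 18.6 in Opn4-DTA/DTA and 1821 ± 167 in WT. Cacng8 averaged 169 ± 14.1 in Opn4-DTA/DTA and 146 ± 27.5 in WT.

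NMDA receptors pair the obligate subunit Grin1 with Grin2 subunits that bind glutamate or Grin3 subunits that bind glycine. These genes varied most between the WT libraries, and no direction was shared: 3 were below 0 and 4 above. Grin1 had 1882 and 1797 normalized counts in Opn4-DTA/DTA and 2207 and 1572 in WT, so that WT held both the highest and the lowest value. Its log2 fold change was 0.23 when WT library a was left out and -0.26 when WT library b was. Grin2d, expressed early in development in many brain regions, had 337 and 366 in Opn4-DTA/DTA and 421 and 275 in WT. Grin2b had 398 and 336 in Opn4-DTA/DTA and 245 and 398 in WT. Here WT library a was the low one, whereas it was the high one for Grin1 and Grin2d.

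The scarce NMDA subunits were measured on few reads. Grin2c had 62.2 and 57.3 normalized counts in Opn4-DTA/DTA and 103 and 67.3 in WT, on 44 to 114 raw counts per library, and its groups were apart (log2 fold change -0.48, SE 0.27, limma adjusted p = 0.9997). Without WT library a its log2 fold change was -0.17. Grin2a had 40.4 and 37.9 in Opn4-DTA/DTA and 48.7 and 47.4 in WT (log2 fold change -0.29, SE 0.26). The ratio of Grin2a to Grin2b was 0.102 and 0.113 in Opn4-DTA/DTA and 0.199 and 0.119 in WT, apart but with WT library b close to Opn4-DTA/DTA (exact permutation p = 0.33, the smallest possible). In the forebrain this ratio is known to rise as synapses mature. Grin3b had 28.9 and 27.6 in Opn4-DTA/DTA and 32.5 and 13.8 in WT, the widest gap between the libraries of a group in the set. Grin3a averaged 199 ± 30.8 in Opn4-DTA/DTA and 197 ± 41.0 in WT. Grin1 made up 77.6% ± 0.0545 of NMDA subunit transcripts per kb in Opn4-DTA/DTA and 77.8% ± 0.329 in WT.

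Kainate receptors serve OFF bipolar cells among others, and their genes went both ways. Grik1, whose subunit forms the main kainate receptor of OFF cone bipolar cells, had 2190 and 2349 normalized counts in Opn4-DTA/DTA and 2361 and 2784 in WT (log2 fold change -0.18, SE 0.11, unadjusted p = 0.158). Opn4-DTA/DTA library b and WT library a were nearly level. With 1 WT library left out the log2 fold change of Grik1 was -0.30 without library a and -0.06 without library b. Grik3 lay the other way, with 2426 and 2196 in Opn4-DTA/DTA and 2003 and 2071 in WT (log2 fold change 0.18, SE 0.10, unadjusted p = 0.110). Its groups were apart. Grik5, a subunit that raises the affinity of the receptors it joins, was the most abundant at 4881 and 4648 in Opn4-DTA/DTA and 5109 and 4576 in WT, with the groups overlapping. Grik2 averaged 1201 ± 9.48 in Opn4-DTA/DTA and 1098 ± 142 in WT, and Grik4 averaged 310 ± 8.25 in Opn4-DTA/DTA and 306 ± 15.6 in WT. The share of Grik3 among kainate subunits was 11.6% ± 0.630 per kb in Opn4-DTA/DTA and 9.96% ± 0.269 in WT (exact permutation p = 0.33).

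Metabotropic receptors act through G proteins, and those of group III, Grm4, Grm7 and Grm8, sit mostly on presynaptic terminals. Of the 6 genes 4 were above 0, and their log2 fold changes ranged from -0.10 to 0.13. Grm7, the most abundant, had 2118 and 1959 normalized counts in Opn4-DTA/DTA and 2383 and 1999 in WT. Grm4 had 391 and 370 in Opn4-DTA/DTA and 369 and 343 in WT, apart by less than 2 normalized counts between the nearest libraries. Grm8 averaged 729 ± 59.5 in Opn4-DTA/DTA and 713 ± 22.0 in WT. Of group II, Grm2 averaged 692 ± 46.7 in Opn4-DTA/DTA and 659 ± 11.5 in WT, and Grm3 averaged 479 ± 52.2 in Opn4-DTA/DTA and 438 ± 45.0 in WT. Grm5, of group I, averaged 735 ± 31.5 in Opn4-DTA/DTA and 799 ± 165 in WT.

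Vesicular transporters fill synaptic vesicles with glutamate, and Slc17a7 (VGLUT1) does so in photoreceptors and bipolar cells. It had 16695 and 18478 normalized counts in Opn4-DTA/DTA and 20455 and 20429 in WT. Both Opn4-DTA/DTA libraries were lower, by a ratio of means of 0.860, with a log2 fold change of -0.22 (SE 0.10, 95% interval -0.45 to 0.01, unadjusted p = 0.0574, limma adjusted p = 0.9997). With 1 library left out the log2 fold change lay between -0.29 and -0.15. Its sign could not turn, since the groups were apart. In the authors' deposited table Slc17a7 has a log2 fold change of -0.17 (SE 0.06, p = 0.00757, adjusted p = 0.9997). The size of that fold change is not directly comparable with limma, since Opn4 has -0.60 there and -8.03 in limma. Slc17a8 (VGLUT3), found in a class of amacrine cells, averaged 186 ± 24.0 in Opn4-DTA/DTA and 190 ± 29.5 in WT.

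The listed rod, cone and bipolar cell markers mostly had log2 fold changes below 0, as Slc17a7 did, and none of them passed the test. All 9 rod markers were below 0, with summed values of 483297 to 494933 in Opn4-DTA/DTA and 509120 to 594284 in WT. Of 7 cone markers 5 were below 0 and 2 above, with sums of 34225 to 35193 in Opn4-DTA/DTA and 38964 to 41756 in WT. The cone arrestin gene Arr3, which is not on that list, lay the other way and passed the test. It had 1402 and 1438 normalized counts in Opn4-DTA/DTA and 541 and 441 in WT (log2 fold change 1.54, limma adjusted p = 0.0268). All 9 bipolar markers were below 0, and Grik1 is among them. The bipolar sums of 58057 to 63952 in Opn4-DTA/DTA and 63151 to 75230 in WT overlapped. The part of rod, cone and bipolar cells in the values of Slc17a7 and Grik1 was not tested.

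Plasma membrane transporters clear glutamate from the synapse, and all 4 had log2 fold changes below 0, between -0.15 and -0.02. Slc1a3 (GLAST), the main transporter of Muller glia, had 10688 and 11549 normalized counts in Opn4-DTA/DTA and 10991 and 13823 in WT. WT library b was the high one, and without it the log2 fold change of Slc1a3 was 0.02, against -0.32 without WT library a. Slc1a2 (GLT-1) averaged 8758 ± 123 in Opn4-DTA/DTA and 9233 ± 1698 in WT, and turned above 0 without WT library b, at 0.12. Slc1a1 (EAAC1), a neuronal transporter, averaged 3459 ± 105 in Opn4-DTA/DTA and 3500 ± 75.5 in WT. Muller glia markers, which include Slc1a3, summed to 55124 to 56068 in Opn4-DTA/DTA and 56111 to 59090 in WT.

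The row named Slc1a7 cannot be assigned to one gene with certainty. Slc1a7 is the symbol of EAAT5, a transporter of photoreceptors and bipolar cells on chromosome 4, and an older name of Slc1a5, a neutral amino acid transporter on chromosome 7. The deposited table gives the row the location and description of Slc1a5, which also has a row of its own at the same place. The values of the rows differ widely, since the Slc1a5 row averaged 184 ± 9.50 in Opn4-DTA/DTA and 205 ± 30.5 in WT. In all, 556 of the 23179 rows with a location share it with another row. Under the symbol Slc1a7 the table held 4955 and 5549 normalized counts in Opn4-DTA/DTA and 5622 and 6027 in WT, apart in the lower direction (log2 fold change -0.15, SE 0.10, unadjusted p = 0.170). Without this row, 16 of 37 members were below 0 and the median was 0.02.

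Scaffold proteins anchor receptors beneath the synapse. Dlg4 encodes PSD-95, which in the retina is also found in photoreceptor terminals. It had 17678 and 17990 normalized counts in Opn4-DTA/DTA and 21778 and 18307 in WT (log2 fold change -0.16, SE 0.11, unadjusted p = 0.183). WT library a was well above the other 3 libraries, and WT library b lay just above both Opn4-DTA/DTA libraries. Without WT library a the log2 fold change was -0.04. Homer1, which ties group I metabotropic receptors to calcium stores, averaged 1559 ± 46.2 in Opn4-DTA/DTA and 1604 ± 170 in WT. Shank1 averaged 2992 ± 100 in Opn4-DTA/DTA and 2954 ± 89.2 in WT. Shank2 averaged 2307 ± 288 in Opn4-DTA/DTA and 2413 ± 7.18 in WT, and was the scaffold gene with the widest spread within Opn4-DTA/DTA.

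**Figure D4:**
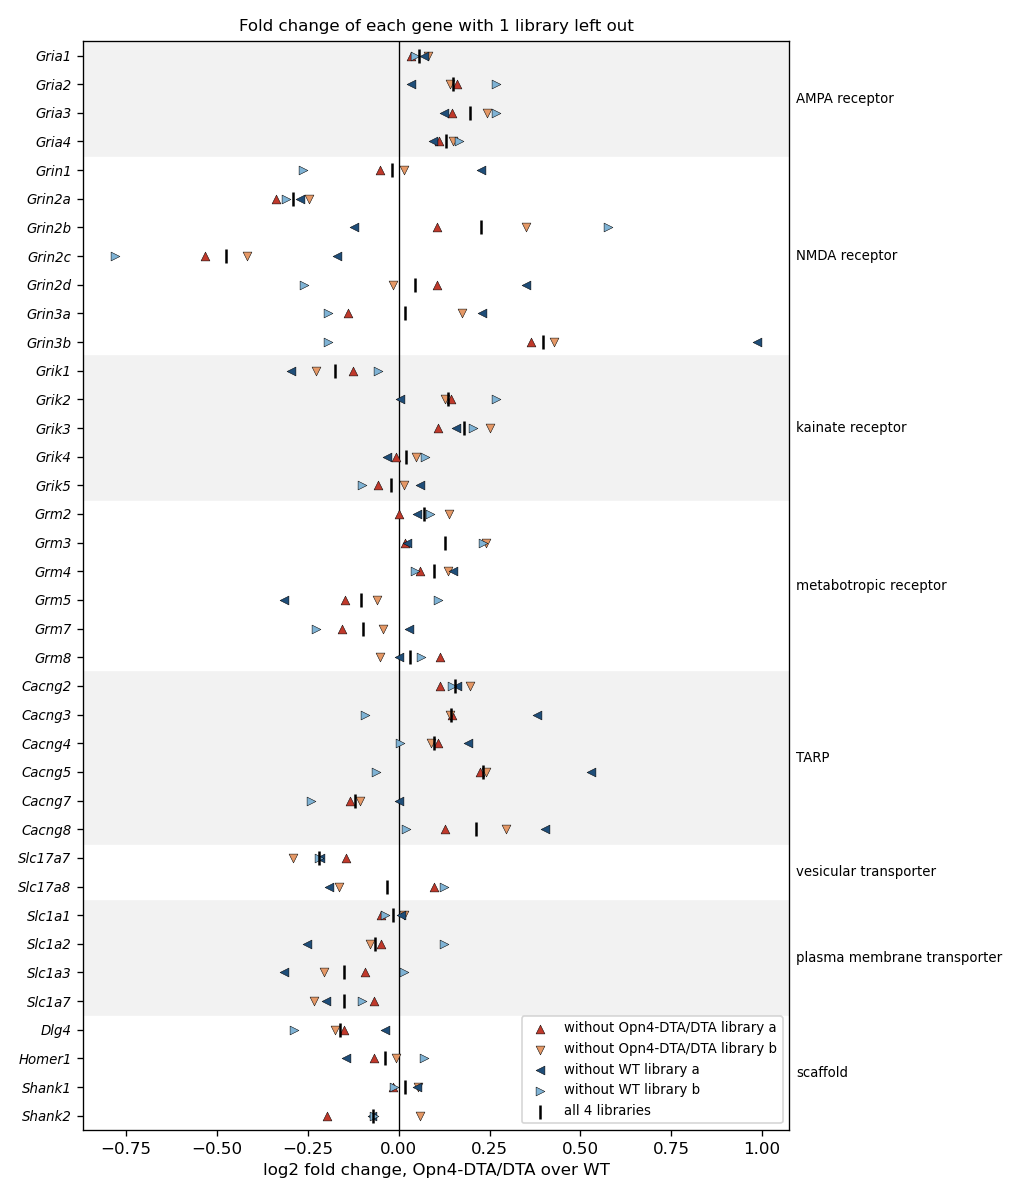
log2 fold change of each gene, Opn4-DTA/DTA over WT, with all 4 libraries (vertical marks) and with 1 library left out (triangles). The points that leave out one or the other WT library lie on opposite sides for genes of every family except the AMPA receptors. Grin1, Grin2d, Cacng3, Cacng5, Grik5, Grm5, Slc17a8, Slc1a2 and Homer1 are among them. The 4 AMPA subunit genes and Slc17a7 are among those that keep their side. The libraries of their groups were apart, so leaving out 1 library could not turn the direction of these genes. Their keeping it therefore says nothing about how stable they are.

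The WT libraries also differed in markers of several cell types, among them ganglion cells, which express NMDA receptors and TARPs. The 9 ganglion cell markers stood at a sum of 59092 in library a of WT but 36269 in library b, with Opn4-DTA/DTA at 48568 and 48821 between them. Grin1, Grin2d, Grin3a, Grin3b, Cacng3, Cacng5 and the kainate receptor gene Grik5 had the same order, with WT library a highest and WT library b lowest. The share of all genes with this order was not counted, so the match is a description only. All 6 TARP genes and 6 of the 7 NMDA genes were higher in WT library a than in WT library b. Of all 38 members 20 were, against 50.3% of all genes tested. Summed markers of other cells differed between the WT libraries as well. Pigment epithelium markers summed to 7015 in WT library a but 3036 in library b, astrocyte markers to 6140 but 4303, and microglia markers to 2218 but 1662. Bipolar markers lay the other way, at 63151 in library a and 75230 in library b, as did horizontal cell markers at 8374 and 11040. The part of any of these markers in the values of the glutamate genes was not tested.

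Other genes of glutamate signalling gave no call either. A further 32 genes were tested, among them the delta receptors, other MAGUK scaffolds, receptor auxiliary proteins and enzymes of glutamate metabolism. limma called 0 of the 32, with 0 at an unadjusted p under 0.05, and 16 were below 0 (median 0.00390). The lowest unadjusted p was that of Dlg2, which encodes PSD-93, a relative of PSD-95, with 12381 and 12016 normalized counts in Opn4-DTA/DTA and 10633 and 10973 in WT (log2 fold change 0.18, SE 0.09, unadjusted p = 0.0854). Dlg2 thus lay above WT in both libraries, whereas Dlg4 lay below. The glutamine transporter gene Slc38a3 had 5802 and 4954 in Opn4-DTA/DTA and 5947 and 6019 in WT, and Homer2 had 1000 and 979 in Opn4-DTA/DTA and 1106 and 1091 in WT (unadjusted p = 0.170 and 0.187). Slc17a6, the vesicular transporter VGLUT2 of ganglion cells, is itself among the ganglion cell markers. It had 4182 and 4155 in Opn4-DTA/DTA and 4587 and 3041 in WT, in the same order as the sum of those markers, to which its counts contribute. It passed without WT library a (limma adjusted p = 0.00801), again with a single WT library and beside 2.04% of all genes. The row named Grip1 carries the location of Ncoa2, another gene with that older name.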

How the data were processed

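RNA of whole mouse retinas was sequenced from directional libraries of polyadenylated RNA, per the labels' protocols. FastQC, STAR, HTSeq, DESeq2 and mm10 are named without versions in the submitters' processing notes, and whether counting used strand is not given in the sources used here. Exons of Grin1 and Slc1a1 share 1307 and 1216 bases with genes on the other strand in GENCODE.

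The table deposited by the authors holds a signal per group, the mean over 2 libraries of counts divided by a size factor. It also holds the authors' deposited log2 fold changes with SE, a score (the test statistic), and p-values with adjusted p-values. A deposited sheet of candidates repeats rows of this table and was not used. Each mean above 0 was solved for 1 pair of whole counts (relative tolerance 3e-13), for 18327 means in Opn4-DTA/DTA and 17757 in WT, and median-of-ratios size factors recomputed from these counts matched within a relative 2.03e-05. Counts of the libraries of a group differed beyond sampling noise, with a chi-square per degree of freedom of 18.5 in Opn4-DTA/DTA and 25.7 in WT. The recovered libraries carry no sample label.

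The main test was limma (3.58.1, under R 4.3.3) on log2(normalized count + 1), using a variance trend and no covariates, for genes whose mean reached 10 normalized counts, with Benjamini-Hochberg adjustment over all 15003 genes and a threshold of 0.05. The fit was also run on simulated counts with the same dispersion in both groups, whereas in the data the WT libraries differed more. That run therefore does not show how well the fit does with the spread of these data. The detection floor of 3 reads equals 1.64 and 3.07 normalized counts in the Opn4-DTA/DTA libraries and 3.48 and 4.59 in the WT libraries. Values in every library are given for the most abundant member of each family by mean normalized count, the 10 members with the lowest p and the 5 with the widest gap within a group, as well as some others. Of the further pathway genes the 3 with the lowest p are named, and Slc17a6 and Grip1 were named after their rows had been seen. Arr3, which is on none of the lists, was likewise named with its values known. The members and gene lists were chosen with earlier results of these data known.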

Additional observations from a re-analysis of the deposited data

How the results depend on the processing

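Under 8 alternatives, with a pseudocount of 0.5 or 5, no filter, scaling by library totals, recomputed size factors, no variance trend, thinned counts or voom weights, limma called 0 of the 38 members and 0 of the 32 further genes. Without a trend 0 of 15003 genes were called, and 483 had an unadjusted p under 0.05. Leaving out 1 library at a time, the genes called numbered 10 to 306, the members called 0 to 2 and the further genes called 0 to 1, all of these last without WT library a. The count of members below 0 was 14 with scaling by library totals. With that scaling the log2 fold changes of Grin1, Grik5 and Slc1a1 turned to 0.010, 0.0070 and 0.012. With thinned counts those of Slc1a1, Grin3a and Grik4 turned to 0.00062, -0.13 and -0.0028. The sign of 17 of the 38 members was kept under every setting and leave-out run, and 21 turned in at least 1. Those that turned with a library left out ranged as follows. NMDA genes ranged from -0.26 to 0.23 (Grin1), -0.12 to 0.58 (Grin2b), -0.26 to 0.35 (Grin2d), -0.19 to 0.23 (Grin3a) and -0.19 to 0.99 (Grin3b). Kainate and metabotropic genes ranged from -0.033 to 0.071 (Grik4), -0.10 to 0.058 (Grik5), -0.00028 to 0.14 (Grm2), -0.32 to 0.11 (Grm5), -0.23 to 0.027 (Grm7) and -0.052 to 0.11 (Grm8). TARP genes ranged from -0.093 to 0.38 (Cacng3), -0.064 to 0.53 (Cacng5) and -0.24 to 0.00049 (Cacng7). Transporter genes ranged from -0.19 to 0.13 (Slc17a8), -0.048 to 0.014 (Slc1a1), -0.25 to 0.12 (Slc1a2) and -0.32 to 0.016 (Slc1a3). Scaffold genes ranged from -0.15 to 0.071 (Homer1), -0.016 to 0.053 (Shank1) and -0.20 to 0.057 (Shank2). Of those that kept their sign, Grin2c ranged from -0.78 to -0.17, Grik1 from -0.30 to -0.06, Dlg4 from -0.29 to -0.04, Slc1a7 from -0.23 to -0.07 and Cacng8 from 0.02 to 0.40. For members whose groups were apart, among them Grin2c, Grik1, Dlg4 and Slc1a7, leaving out 1 library could not turn the sign. A fit with 1 library in a group assumes that it varies like the other group. The difference in the Grin2a to Grin2b ratio, Opn4-DTA/DTA minus WT, was -0.05 with all libraries and ranged from -0.09 to -0.01. The cause was not tested. No paired analysis was possible because the recovered libraries could not be tied to the samples of the labels. Leaving out the Slc1a7 row was chosen after seeing the data. With 2 libraries a group, small differences were not detectable.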
